A study of Homo sapiens with 13 samples.

Results

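The effect of OICR623, a compound known in the labels by its code name, was measured after 6 h in SW480 cells, a long-established line from a human colon adenocarcinoma, by comparing the 2 OICR623 arrays of the study with its 4 arrays of cells given DMSO, the solvent. These 6 arrays of the 13 were chosen by their labels. The other 7 arrays were of cells given iron chelators, 4 with DFO and 3 with Deferasirox. They entered the fit to share the estimate of spread and for the comparisons between compounds. They also helped to set the correction for the overall signal of the arrays, described below. Per the labels, OICR623 was given at 10 mM, DFO at 100 mM, Deferasirox at 50 mM and DMSO at 0.1%. Doses are printed in the labelled unit, which is in doubt: millimolar doses are improbably high for such compounds in cell culture, and no other source here settles the unit. The labels call the arrays biological replicates, drawn from separate experiments, and no group carries a genetic change. RNA was hybridised to Affymetrix Human Gene 1.0 ST arrays, whose probes lie along the whole transcript. 18404 genes were measured by a probe set that names 1 gene symbol. All values below are the deposited signals on the log2 scale, where a difference of 1 is a doubling, and no level is set against that of another gene.

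Iron chelators bind iron and lower what cells can use. The prolyl hydroxylases that mark hypoxia-inducible factor (HIF) for destruction need iron and oxygen, so chelation is known to stabilise HIF and to raise its target genes. Ribonucleotide reductase, which makes the building blocks of DNA, also needs iron. The mRNAs of replication-dependent histones, which end in a stem-loop in place of a poly(A) tail, are known to be made in S phase and to be lost when DNA synthesis stops. SW480 cells carry a truncated APC and high beta-catenin activity, which made Wnt target genes a further list to read.

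The arrays fell into 3 levels of overall signal, and this shapes every value below. The median log2 signal was 7.17 to 7.19 on DMSO 1 and DFO 1, 6.64 to 6.69 on 8 arrays that included both OICR623 arrays, DMSO 2 and DMSO 3, and 6.52 to 6.55 on DMSO 4, DFO 4 and Deferasirox 3. Over all 32321 transcript clusters, arrays of 1 level correlated with each other at 0.9924 to 0.9968, and arrays of different levels at 0.9821 to 0.9923. The level was therefore entered as a block in the fit (limma, Benjamini-Hochberg adjustment over all genes, a gene being called at an adjusted p under 0.05), with 7 residual degrees of freedom. The level terms were shared by all groups, so the DFO and Deferasirox arrays also bear on the size of each change from DMSO. The 2 OICR623 arrays differed from each other by a median of 0.10 per gene, and DMSO 2 and 3 by 0.09. Of the epithelial markers, the keratin gene KRT8 was at 12.54 and 12.53 on DMSO 2 and 3 and 12.56 and 12.57 on OICR623 1 and 2, and EPCAM was at 9.26 and 9.56 against 9.63 and 9.54. CDX2, an intestinal transcription factor, was at 9.26 and 9.41 against 8.76 and 8.99. CDH1, also on the epithelial list, was at 5.46 and 5.69 against 5.45 and 5.27. The leukocyte gene PTPRC was at 3.05 and 3.28 on those DMSO arrays and 3.08 and 3.21 with OICR623. CD68, also on the leukocyte list, was at 9.26 and 9.56 against 9.35 and 9.55. The genes printed are examples of their lists. None of the 18 colon epithelium, 12 fibroblast, 12 endothelial or 13 leukocyte markers measured was called, and over these 4 lists the median change was between 0.00 and 0.03.

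**Figure D1:**
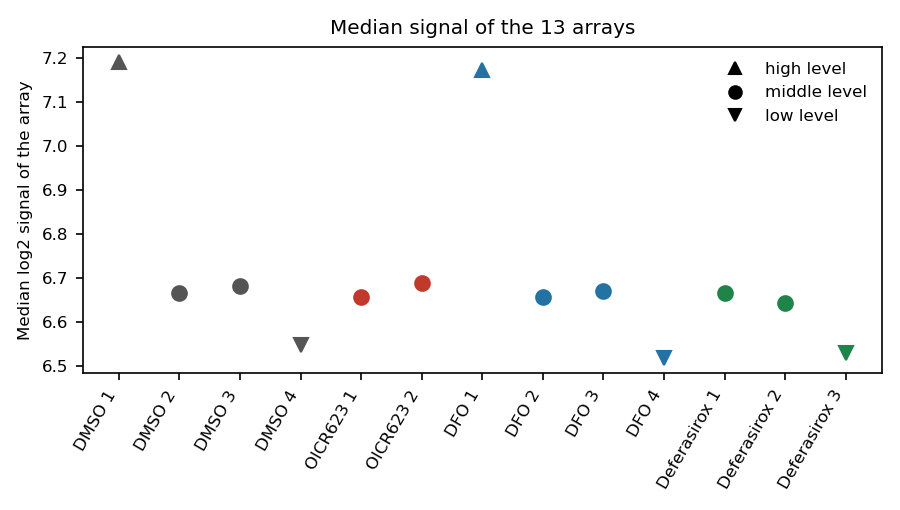
Median log2 signal of each of the 13 arrays, coloured by group, with the marker shape giving the level. Both OICR623 arrays lie at the middle level beside DMSO 2 and 3, while DMSO 1 and DFO 1 stand above 7.1.

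After OICR623, 135 of 18404 genes (0.734%) were called, 62 higher (0.337%) and 73 lower (0.397%). At that rate a short gene list may well hold no call, so a list without one does not stand out from all genes. The highest were ARRDC3, DDIT4, ADM, ERRFI1 and EGLN3, which rose by 1.71 to 2.20, and the largest falls were in histone genes led by H3C12 (-1.70 ± 0.14, SE). 13 of the higher calls and 5 of the lower exceeded 1 in size, and 52 of the 135 were 0.5 or less. Before adjustment 1963 genes had p under 0.05. A second fit used the 8 arrays of the middle level alone. It set the 2 OICR623 arrays against DMSO 2 and 3, with the DFO and Deferasirox arrays of that level sharing the estimate of spread (4 residual degrees of freedom). All 135 genes kept their direction there, but the 135 were chosen by a fit that rests on these same arrays, so this is no independent check. The fit called 81 genes, of which 74 were among the 135. Without the block 7 genes were called (0.038%), ARRDC3, DDIT4, ERRFI1, EGLN3, CHST15, HUNK and MOB3A, and the median change of all genes was -0.11 in place of 0.00. With OICR623 1 left out 33 genes were called, with OICR623 2 or with DMSO 3 left out 67, with DMSO 2 left out 83 and with Deferasirox 1 left out 89, while no other array moved the count by more than 1.5 times.

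Against the range of all 4 DMSO arrays, both OICR623 arrays lay above it for 205 genes (1.11%) and below it for 921 (5%). Among the called genes this held for 26 of the 62 higher and 60 of the 73 lower. These ranges are not adjusted for level. In overall signal DMSO 1 stands far above the OICR623 arrays and DMSO 4 only slightly below them. Lying above the range is therefore harder than lying below it, and the counts for rises and falls cannot be compared. The difference between the 2 OICR623 arrays had a median of 0.08 over the called genes and was at most 0.60, at H1-5.

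**Figure D2:**
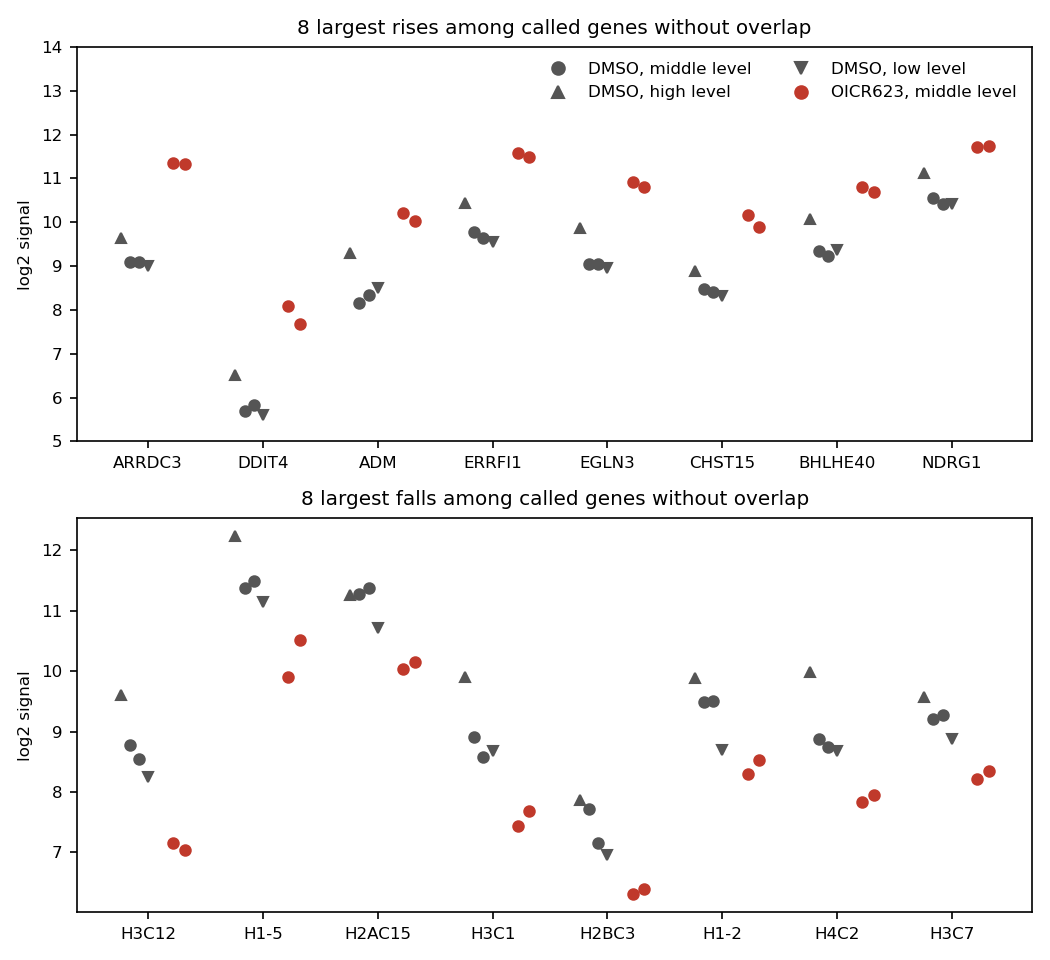
Log2 signal of 8 genes with the largest rises (top) and 8 with the largest falls (bottom) among called genes whose OICR623 arrays both lie outside the DMSO range. Each point is 1 array (grey DMSO, red OICR623, shape giving the level); ARRDC3 stands at 11.36 and 11.33 against 9.0 to 9.64.

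HIF targets made up 7 of the 13 rises over 1. Of 47 measured HIF targets outside glycolysis, 14 rose and 1 fell (29.8% and 2.13%, against 0.337% and 0.397% of all genes), and their median change was 0.21 against 0.00 over all genes. 11 of the 47 lay above all 4 DMSO arrays, against 1.11% of all genes, and 2 lay below, against 5% of all genes. Without the level block 3 of the 47 were called higher, ARRDC3, DDIT4 and EGLN3. Leaving out OICR623 1 left 6 called and leaving out OICR623 2 left 9.

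ARRDC3, an alpha-arrestin that binds membrane receptors and promotes their turnover, read 9.64, 9.10, 9.10 and 9.0 on DMSO 1 to 4 and 11.36 and 11.33 on OICR623 1 and 2. Both OICR623 arrays lay well above the highest DMSO array, and they nearly coincided. The change was 2.20 ± 0.07 (SE; 4.58-fold, adjusted p = 1.5e-07 by limma), and it was 2.17 to 2.23 with any 1 array left out. DDIT4, an inhibitor of mTORC1 that low oxygen is known to induce, read 6.51, 5.69, 5.82 and 5.60 in DMSO and 8.09 and 7.68 with OICR623. Its groups did not overlap, and the change was 2.14 ± 0.14 (4.42-fold, adjusted p = 6.9e-05). ADM, the vasodilator peptide adrenomedullin, read 9.29, 8.15, 8.33 and 8.49 against 10.22 and 10.04, a rise of 1.78 ± 0.14 (adjusted p = 0.00016). EGLN3, a HIF prolyl hydroxylase that is itself a HIF target, read 9.88, 9.05, 9.05 and 8.96 against 10.92 and 10.81, a rise of 1.71 ± 0.12 (adjusted p = 0.00015). For these 4 genes DMSO 1 was the highest DMSO array and still lay below both OICR623 arrays.

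BHLHE40, a transcriptional repressor that also acts in the circadian clock, read 10.07, 9.35, 9.22 and 9.36 in DMSO and 10.80 and 10.70 with OICR623, a rise of 1.43 ± 0.07 (adjusted p = 5.5e-06). Its relative BHLHE41 moved the other way, from 8.47, 8.30, 8.38 and 8.12 to 7.81 and 7.88, a fall by 0.45 (adjusted p = 0.0068; 0.09 without OICR623 1), and was the only HIF target on the list called lower. NDRG1, which is widely used as a marker of iron chelation and hypoxia, read 11.13, 10.55, 10.42 and 10.42 against 11.71 and 11.74, a rise of 1.21 ± 0.09 (adjusted p = 0.00016). VEGFA, the angiogenic growth factor, read 8.30, 7.37, 7.38 and 6.88 against 8.38 and 8.31. OICR623 2 and DMSO 1 nearly coincided, and the blocked change was 1.02 ± 0.14 (adjusted p = 0.0086; 0.1 without OICR623 1 and 0.071 without OICR623 2). ANGPTL4, a secreted inhibitor of lipoprotein lipase, rose by 0.88 ± 0.16 (adjusted p = 0.035), a call that was kept only without DFO 1, DFO 4, DMSO 1 or DMSO 4 and had an adjusted p of 0.054 to 0.17 without each of the other 9 arrays.

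The smaller rises on the list were LOXL2, a collagen-crosslinking oxidase (0.86), BNIP3L, a mitophagy receptor (0.79), KDM3A, a histone H3 lysine demethylase (0.79), P4HA1, a collagen prolyl hydroxylase subunit (0.58), ANKRD37 (0.55) and KLF10 (0.31). BNIP3L kept its call only without DFO 1 or DMSO 1 (adjusted p 0.056 to 0.23 without each other array), as did KLF10 (0.053 to 0.23), whereas KDM3A and P4HA1 lost it only without OICR623 1 (0.082 and 0.1). For LOXL2, BNIP3L, KDM3A, P4HA1 and KLF10 the OICR623 arrays overlapped the DMSO arrays through DMSO 1, the highest DMSO array, which lay above both OICR623 arrays for each of them but P4HA1. KDM3A, for example, read 9.21, 8.19, 8.06 and 8.15 in DMSO and 8.97 and 8.83 with OICR623. Of the 32 members not called, IGFBP3 had the largest value, 1.23 (adjusted p = 0.064), followed by INSIG2 at 0.53 (adjusted p = 0.075), and the lowest were PLOD2 and EFNA3 at -0.12.

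Glucose uptake and glycolysis held 4 rises among 24 measured genes (16.7%, against 0.337% of all genes) and no falls, with a median of 0.10. SLC2A1, the glucose transporter GLUT1, read 13.56, 13.06, 13.06 and 12.92 in DMSO and 13.72 and 13.65 with OICR623, a rise of 0.56 ± 0.07 (adjusted p = 0.0053; 0.082 without OICR623 1). SLC2A3, the transporter GLUT3, rose by 0.91 ± 0.14 (adjusted p = 0.016; 0.15 and 0.095 without OICR623 1 and 2), with DMSO 1 at 13.23 above both OICR623 arrays at 13.14 and 13.03. Its close copy SLC2A14 was called too (0.62), and the arrays may not separate the pair. The neuronal enolase ENO2 (0.51, adjusted p = 0.032) and PDK1, which slows pyruvate entry into mitochondria (0.35, adjusted p = 0.047), were called as well, but ENO2 kept its call without 6 of the 13 arrays and PDK1 without 3. ENO2 lost it without DMSO 2, 3 or 4, either OICR623 array, or Deferasirox 1 or 3 (adjusted p 0.058 to 0.19), and PDK1 without any array but DFO 1, DFO 4 and DMSO 1 (0.055 to 0.23). LDHA, at 0.11 (adjusted p = 0.4), HK2, at 0.28 (adjusted p = 0.17), and PGK1, at 0.14 (adjusted p = 0.36), did not pass the test. The HIF subunits gave HIF1A at -0.03, EPAS1 at 0.09 and ARNT at 0.02, none of them called. Of 11 genes of HIF and oxygen sensing EGLN3 alone was called (9.09%, against 0.337% of all genes called higher).

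Promoter sequences of the leading genes are given because the HIF dimer is known to bind the core ACGTG or GCGTG. They were taken from RefSeq (GRCh38.p14) as the 250 bases before the annotated start, on the gene's strand, with each match on either strand in capitals. DDIT4 lies on the plus strand at chr10:72273674-72273923, BHLHE40 on the plus strand at chr3:4979187-4979436 and ARRDC3 on the minus strand at chr5:91383318-91383567.
DDIT4: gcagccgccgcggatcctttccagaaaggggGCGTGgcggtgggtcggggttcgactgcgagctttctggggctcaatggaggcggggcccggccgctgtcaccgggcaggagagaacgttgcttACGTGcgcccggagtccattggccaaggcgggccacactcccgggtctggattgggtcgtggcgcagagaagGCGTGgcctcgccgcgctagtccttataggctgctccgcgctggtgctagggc
BHLHE40: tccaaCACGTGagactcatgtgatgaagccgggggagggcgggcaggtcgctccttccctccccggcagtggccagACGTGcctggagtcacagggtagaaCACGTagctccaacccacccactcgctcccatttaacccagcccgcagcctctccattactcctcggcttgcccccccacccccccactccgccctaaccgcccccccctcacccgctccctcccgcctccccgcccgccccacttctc
ARRDC3: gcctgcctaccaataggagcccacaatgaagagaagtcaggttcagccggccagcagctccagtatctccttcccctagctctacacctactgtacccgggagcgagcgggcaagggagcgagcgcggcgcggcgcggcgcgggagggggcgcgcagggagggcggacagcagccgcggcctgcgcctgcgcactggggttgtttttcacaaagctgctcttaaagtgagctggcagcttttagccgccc
DDIT4 held 1 ACGTG, starting 125 bases before the start site, and 2 GCGTG. BHLHE40 held 4 matches to ACGTG, of which a pair overlap in 1 CACGTG, and no GCGTG. ARRDC3, the gene with the largest rise, held neither in this window. ACGTG occurred in 18.7% of all 27305 promoters of the table, in 13 of the 47 promoters found for the 62 genes called higher (27.7%) and in 5 of the 9 found for the 14 HIF targets called higher (55.6%). GCGTG occurred in 31.9% of all promoters, in 21 of the 47 (44.7%) and in 3 of the 9 (33.3%). A match is a run of letters, and binding was not measured.

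Among the other large rises was ERRFI1, a feedback inhibitor of EGFR. It read 10.43, 9.78, 9.64 and 9.56 in DMSO and 11.57 and 11.48 with OICR623, a rise of 1.77 ± 0.13 (adjusted p = 0.00015). The EGFR ligand TGFA rose by 1.01 ± 0.08 (adjusted p = 0.00016), although DMSO 1, at 8.88, lay above both OICR623 arrays at 8.75 and 8.81. These 2 and the phosphatase DUSP5, which acts on ERK (0.32, adjusted p = 0.018; 0.062, 0.089 and 0.15 without DMSO 3, OICR623 1 and OICR623 2), were the 3 rises among 24 measured genes of growth factor receptor feedback and IGF binding, whose median was 0.12. The 3 rises are 12.5% of that list, against 0.337% of all genes called higher. EGFR itself stood at 0.07 and SPRY1 at 0.36 (adjusted p = 0.075), neither of them called.

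CHST15, a sulphotransferase of chondroitin chains, read 8.90, 8.48, 8.41 and 8.32 in DMSO and 10.17 and 9.90 with OICR623, a rise of 1.52 ± 0.11 (adjusted p = 0.00015). HUNK, a kinase of the AMPK family, read 8.40, 8.46, 8.14 and 7.99 against 9.55 and 9.36, a rise of 1.15 ± 0.09 (adjusted p = 0.00016). MOB3A, of the MOB family of kinase regulators, read 10.15, 9.96, 10.00 and 9.86 against 11.10 and 11.02 (1.07 ± 0.10, adjusted p = 0.00054). The groups of these 3 genes did not overlap, and their calls were kept without any 1 array. MTUS1 rose by 0.93, FOSL2, an AP-1 subunit, by 0.85 and the hyaluronan-degrading protein CEMIP by 0.79. FOSL2 lost its call without DMSO 2, DMSO 3, OICR623 1 or OICR623 2 (adjusted p 0.07, 0.071, 0.15 and 0.1). FOSL2 and KLF10 were the 2 rises among 27 immediate early genes (7.41%, against 0.337% of all genes), and JUN stood at 0.22 (adjusted p = 0.14).

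DDIT4 and ARRDC3 were the 2 rises among 21 mTOR regulators and alpha-arrestins (9.52%, against 0.337% of all genes). 1 member fell (4.76%, against 0.397% of all genes). ARRDC4, another alpha-arrestin, read 8.45, 7.42, 7.17 and 6.92 in DMSO and 6.77 and 6.81 with OICR623, a fall by 0.51 (adjusted p = 0.048) that was kept only without Deferasirox 2 or DFO 2 (0.051 to 0.21 without each other array). Its relative TXNIP, like ARRDC4 known to respond to glucose, stood at -0.44 (adjusted p = 0.17). Of the 28 genes of the ATF4 and amino acid response DDIT4 alone was called (3.57%, against 0.337% of all genes). DDIT3, the stress factor CHOP, stood at -0.18. No member was called among the 22 genes of the unfolded protein response, 14 of the heat shock response, 25 NRF2 targets, 15 metallothioneins and zinc genes, 10 of the aryl hydrocarbon receptor and 21 of NF-kB, whose medians lay between 0.00 and 0.06. CYP1A1 stood at -0.17 and HMOX1 at -0.02.

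**Figure D3:**
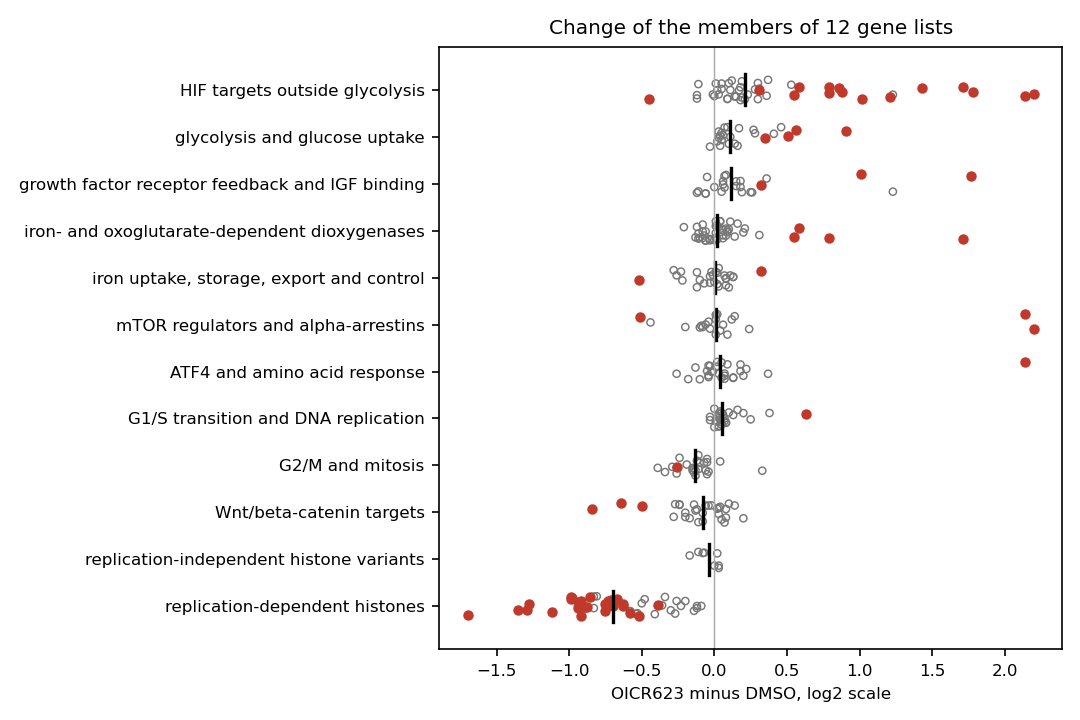
Change after OICR623 (log2 scale) of each measured member of 12 gene lists. Red points are called, open grey points are not, and the black bar is the list's median; all 49 replication-dependent histones lie below 0, and 14 HIF targets are called higher.

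Of 28 measured genes of iron handling, 1 rose and 1 fell (3.57% each, against 0.337% and 0.397% of all genes), and the median was 0.01. FBXL5, the iron-sensing subunit of the ubiquitin ligase that removes iron regulatory protein 2, read 11.14, 10.80, 10.82 and 10.35 in DMSO and 10.31 and 10.20 with OICR623. Both OICR623 arrays lay below all DMSO arrays, and the fall was by 0.52 ± 0.07 (adjusted p = 0.0046; 0.058 without OICR623 2). TFRC, the transferrin receptor, whose mRNA is known to be stabilised when iron is low, read 12.41, 11.36, 11.27 and 11.61 against 11.73 and 11.64. These values overlap, and the rise of 0.32 ± 0.06 (adjusted p = 0.045) was kept without DMSO 4 alone (0.054 to 0.23 without each other array), was 0.02 without the level block and was 0.37 within the middle level (adjusted p = 0.085). The iron importer SLC11A2 stood at -0.01, the light ferritin chain FTL at -0.12 and the exporter SLC40A1 at -0.22, none of them called. None of 22 genes of iron-sulphur cluster and heme synthesis was called.

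Iron- and oxoglutarate-dependent dioxygenases are the family that holds the HIF hydroxylases, collagen hydroxylases and many demethylases. Among the 43 measured, 4 rose (9.30%, against 0.337% of all genes) and none fell, with a median of 0.02. The 4 were EGLN3, KDM3A, P4HA1 and KDM7A, a histone demethylase. KDM7A rose by 0.55 ± 0.08 (adjusted p = 0.014; 0.062 without DMSO 3) and by 0.48 without OICR623 1. EGLN3, KDM3A and P4HA1 are also on the HIF target list. EGLN1, the main HIF prolyl hydroxylase, stood at 0.31 (adjusted p = 0.054), and TET1, TET2 and TET3 at 0.16, 0.11 and -0.06.

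Replication-dependent histone genes made up 26 of the 73 falls. All 49 measured members had values below 0, from -1.70 to -0.09, with a median of -0.70 against 0.00 over all genes. 26 fell (53.1%, against 0.397% of all genes) and none rose. 41 of the 49 lay below all 4 DMSO arrays, against 5% of all genes. Within the middle level the median was -0.67 and 19 members were called. Without the level block none of the 49 was called, in a fit that called 7 genes in all and had 104 genes at an unadjusted p under 0.05, while the lowest and highest median of this list over all settings tried were -1.03 and -0.57. Leaving out OICR623 1 left 7 called, OICR623 2 12, DMSO 3 16 and DMSO 2 17. In RNA from a whole culture, fewer cells in S phase and less histone mRNA per cell cannot be told apart.

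Falls were found in every histone class. All 8 measured H3 genes were called, with a median of -0.92 and a range of -1.70 to -0.63. Of the 12 H2A genes 7 were called (median -0.69), of the 9 H4 genes 5 (median -0.58), of the 15 H2B genes 4 (median -0.58) and of the 5 H1 genes 2 (median -0.34). H3C12 read 9.61, 8.77, 8.54 and 8.24 in DMSO and 7.15 and 7.03 with OICR623, with both OICR623 arrays well below the lowest DMSO array, and the fall was 3.25-fold (adjusted p = 0.00018). H3C1 read 9.91, 8.91, 8.57 and 8.67 against 7.44 and 7.68, a change of -1.28 ± 0.13 (adjusted p = 0.0012). H3C7 read 9.57, 9.21, 9.28 and 8.88 against 8.22 and 8.35, a change of -0.98 ± 0.10 (adjusted p = 0.00097). The calls of H3C1, H3C7, H3C8, H3C12, H2AC20 and H2BC10 were kept without any 1 array.

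H2AC15 read 11.26, 11.28, 11.38 and 10.71 in DMSO and 10.04 and 10.15 with OICR623 (-1.29 ± 0.16, adjusted p = 0.0038), and H2BC3 read 7.87, 7.72, 7.15 and 6.95 against 6.30 and 6.39 (-1.12 ± 0.14, adjusted p = 0.0038). H4C2 read 9.98, 8.87, 8.75 and 8.67 against 7.84 and 7.94 (-0.99 ± 0.12, adjusted p = 0.0038). Without OICR623 1 their adjusted p was 0.072, 0.066 and 0.072. The linker histone gene H1-2 fell by 0.99 ± 0.13 (adjusted p = 0.0051; 0.085 without OICR623 1). H1-5, a second linker histone gene, read 12.24, 11.37, 11.50 and 11.14 in DMSO and 9.91 and 10.51 with OICR623, 2 values that differ by 0.60. Its change of -1.35 ± 0.25 (adjusted p = 0.045) was called without Deferasirox 2 or without Deferasirox 3, and was lost without each other array (0.051 to 0.24).

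H2AC20 read 11.91, 10.78, 10.86 and 10.75 in DMSO and 9.83 and 10.02 with OICR623, a change of -0.89 ± 0.10 (adjusted p = 0.0021). H2AC4 (-0.94, adjusted p = 0.038) kept its call without DFO 3, DFO 4, Deferasirox 2 or Deferasirox 3 only (0.053 to 0.19 without each other array). H3C2 (-0.92) lost it without DMSO 2, DMSO 3, OICR623 1 or OICR623 2 (0.063, 0.062, 0.16 and 0.1), and H3C11 (-0.88) without Deferasirox 1, DMSO 3, OICR623 1 or OICR623 2 (0.056, 0.08, 0.2 and 0.063). Among members not called, H2AC14 stood at -0.94 (adjusted p = 0.14), H2BC7 at -0.72 (adjusted p = 0.056) and H1-4 at -0.34 (adjusted p = 0.25). Histone genes of a class are near-identical in their coding parts, so the probes of 1 gene may read others, and the members are not independent.

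None of 8 replication-independent histone variants, which are made throughout the cell cycle, was called, against 0.734% of all genes. Their median was -0.03 with a range of -0.17 to 0.03. Of 17 genes that make, process or degrade histone mRNA none was called (median 0.00), and SLBP, which binds the stem-loop, stood at 0.08. None of 11 genes of ribonucleotide reductase and dNTP supply was called either (median 0.04). With 0.734% of all genes called, the lack of a call does not set lists this short apart from all genes. The difference between the lists was not tested.

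Promoters of 3 histone genes with falls are shown for the CCAAT box and the TATAAA box, which histone promoters are known to carry. H3C1 lies on the plus strand at chr6:26020201-26020450, H3C7 on the minus strand at chr6:26250636-26250885 and H2AC20 on the plus strand at chr1:149886668-149886917 (RefSeq, GRCh38.p14), printed 5′ to 3′ with matches on either strand in capitals.
H3C1: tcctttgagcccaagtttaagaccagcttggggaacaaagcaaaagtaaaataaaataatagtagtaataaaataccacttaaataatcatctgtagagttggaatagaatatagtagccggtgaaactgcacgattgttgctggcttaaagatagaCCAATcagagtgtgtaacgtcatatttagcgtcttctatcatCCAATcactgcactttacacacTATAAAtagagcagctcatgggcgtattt
H3C7: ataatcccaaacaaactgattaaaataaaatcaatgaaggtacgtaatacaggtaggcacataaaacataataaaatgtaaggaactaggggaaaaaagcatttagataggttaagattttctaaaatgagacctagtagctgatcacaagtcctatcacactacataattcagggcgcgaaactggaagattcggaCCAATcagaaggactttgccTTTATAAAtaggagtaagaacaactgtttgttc
H2AC20: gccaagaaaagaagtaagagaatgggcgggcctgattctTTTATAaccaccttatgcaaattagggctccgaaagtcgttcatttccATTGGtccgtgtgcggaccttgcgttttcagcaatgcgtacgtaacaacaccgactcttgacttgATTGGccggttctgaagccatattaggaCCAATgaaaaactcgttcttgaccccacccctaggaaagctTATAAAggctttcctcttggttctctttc
The TATAAA nearest the start began 29 bases before it in H3C1 and in H2AC20 and 31 bases before it in H3C7, where a match on the other strand overlaps it. H3C1 held 2 CCAAT, H3C7 held 1 and H2AC20 held 3. CCAAT occurred in 20 of the 22 promoters found for the 26 histone genes that fell (90.9%), against 33.0% of all promoters, and TATAAA in 12 of the 22 (54.5%), against 11.1%. ACGTG occurred in 2 of these 22 and GCGTG in 0.

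Among cell cycle genes, 1 of the 28 of the G1/S transition and DNA replication rose (3.57%, against 0.337% of all genes), CCNE2, cyclin E2. It read 10.64, 9.69, 9.56 and 9.64 in DMSO and 10.28 and 10.15 with OICR623. DMSO 1 lay above both OICR623 arrays, and the blocked change was 0.63 ± 0.06 (adjusted p = 0.0012). The median of the list was 0.05, and PCNA stood at 0.05 and MCM2 at 0.02. Of 26 genes of G2/M and mitosis 24 had values below 0 and the median was -0.13. BUB1B, a spindle checkpoint kinase, was the only call (3.85%, against 0.397% of all genes called lower). It read 11.11, 10.33, 10.40 and 10.23 against 10.12 and 10.11, a fall by 0.26 ± 0.05 (adjusted p = 0.036) that was kept without DMSO 2 alone (0.051 to 0.16 without each other array). PLK1 stood at -0.34 (adjusted p = 0.075). CDKN1A, the CDK inhibitor p21, stood at 0.31 (adjusted p = 0.09), and none of 19 CDK inhibitors and p53 targets was called.

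Of 30 measured Wnt/beta-catenin targets 3 fell (10%, against 0.397% of all genes) and none rose, with a median of -0.08. BAMBI, a pseudoreceptor that dampens TGF-beta signalling, read 11.75, 10.90, 10.80 and 10.34 in DMSO and 10.04 and 9.96 with OICR623. Its groups did not overlap, and the change was -0.84 ± 0.07 (adjusted p = 0.00018), called without any 1 array. The growth factor FGF20 fell by 0.64 ± 0.09 (adjusted p = 0.0099; 0.051, 0.1 and 0.088 without DMSO 3, OICR623 1 and OICR623 2), although DMSO 4, at 8.59, lay below both OICR623 arrays at 8.72 and 8.73. The homeobox factor PROX1 fell by 0.50 ± 0.07 (adjusted p = 0.0072; 0.084 without OICR623 2), with DMSO 4 at 7.98 below OICR623 1 and 2 at 8.20 and 8.07. The most used readouts of the pathway did not pass the test. AXIN2 read 11.53, 10.62, 10.45 and 10.35 in DMSO and 10.40 and 10.23 with OICR623 (-0.24 ± 0.07, adjusted p = 0.22). LGR5 stood at -0.14 (adjusted p = 0.63), NKD1 at -0.08 (adjusted p = 0.69), MYC at -0.27 (adjusted p = 0.14) and CCND1 at 0.03 (adjusted p = 0.9). None of 27 Wnt receptors and components was called.

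OXGR1, a receptor for oxoglutarate, was the largest fall outside the histones. It read 8.05, 8.37, 8.15 and 7.72 in DMSO and 7.26 and 7.31 with OICR623, a change of -0.89 ± 0.14 (adjusted p = 0.015; 0.051, 0.14 and 0.1 without DMSO 3, OICR623 1 and OICR623 2). Of 18 circadian genes BHLHE40 rose and BHLHE41 fell (5.56% each, against 0.337% and 0.397% of all genes). BNIP3L was the only call among 21 autophagy and mitophagy genes (4.76%, against 0.337% of all genes called higher). Among 13 genes of the MYC network, 26 of ribosome biogenesis, 21 of cholesterol and fatty acid synthesis and 21 of the respiratory chain none was called, and their medians were 0.03, -0.09, -0.02 and 0.01.

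The labels call DFO and Deferasirox iron chelators, and OICR623 was set against each of them at the doses used, which differ from its own. In the direct comparison with DFO 31 genes were called (0.168%), 29 higher with OICR623 (0.158%) and 2 lower (0.0109%). The arrays of 19 of the 31 did not overlap. That share was not counted over all genes, and DFO 1 lies at the high level, so the 19 cannot be weighed. Before adjustment 1044 genes had p under 0.05. 24 of the 29 were replication-dependent histone genes, each of which was below DMSO with either compound and further below with DFO. H1-5 read 9.91 and 10.51 with OICR623 and 9.26, 8.23, 8.28 and 7.62 with DFO, a difference of 1.86 ± 0.25 (adjusted p = 0.016). H2AC20 differed by 1.35 ± 0.10 (adjusted p = 0.00076) and H3C12 by 1.20 ± 0.14 (adjusted p = 0.0064). The median histone change from DMSO was -0.70 with OICR623 and -1.55 with DFO, comparisons that share their DMSO arrays. Leaving out OICR623 1 left 16 genes called, OICR623 2 8, DFO 2 15 and DFO 3 17, and without the level block limma called none, with 60 genes at an unadjusted p under 0.05.

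The 5 other genes higher with OICR623 than with DFO were the mitotic genes KIF18A (0.50), CKAP2L (0.43), KIF23 (0.39) and FAM83D (0.33), and the olfactory receptor gene OR5P2 (0.44). KIF18A and KIF23 are spindle kinesins. The 2 lower were GPR171 (-0.45) and DDIT4. GPR171 and OR5P2 read below 5 on all OICR623 and DFO arrays, which carry no detection call for them. DDIT4 read 8.09 and 7.68 with OICR623 and 9.24, 8.84, 8.83 and 9.0 with DFO, a difference of -0.93 (95% interval -1.24 to -0.63, adjusted p = 0.028). It was the only HIF target that differed between these compounds by the test. For ARRDC3 the difference was -0.14 (-0.29 to 0.01, adjusted p = 0.9), for NDRG1 -0.11 (-0.32 to 0.10, adjusted p = 0.99), for EGLN3 -0.27 (-0.55 to 0.01, adjusted p = 0.89) and for VEGFA -0.66 (-0.98 to -0.34, adjusted p = 0.21). The interval of VEGFA lies below 0, but its p did not pass after adjustment over all genes.

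Against Deferasirox 16 genes were called (0.0869%), 11 higher with OICR623 (0.0598%) and 5 lower (0.0272%). The arrays of all 16 did not overlap, but the share over all genes was not counted here either, so this cannot be weighed. Before adjustment 1571 genes had p under 0.05. 8 of the 11 were histone genes, with differences of 0.67 (H4C13) to 1.05 (H3C10). H3C7 read 8.22 and 8.35 with OICR623 and 7.43, 7.56 and 6.75 with Deferasirox, a difference of 0.88 ± 0.10 (adjusted p = 0.009). The median histone change from DMSO was -1.30 with Deferasirox. NRP2, a co-receptor of VEGF and semaphorins, read 8.93 and 8.87 with OICR623 and 8.10, 8.23 and 7.85 with Deferasirox, a difference of 0.76 ± 0.09 (adjusted p = 0.009). It stood at -0.11 from DMSO with OICR623 (adjusted p = 0.72) and -0.88 with Deferasirox, and the choline kinase CHKA (0.44) and LINC00334 (0.33) were also higher with OICR623.

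The 5 lower were the AP-1 subunit JUN, the clock gene PER2, SLFN5, PCDHB5 (each -0.53) and PAX8-AS1 (-0.40). PCDHB5 had low signal, 4.59 and 4.76 with OICR623 and 5.15, 5.24 and 4.91 with Deferasirox, and no detection call was used. JUN read 8.87 and 8.84 with OICR623 and 9.29, 9.40 and 9.57 with Deferasirox (adjusted p = 0.009), and PER2 read 8.31 and 8.24 against 8.79, 8.82 and 8.60 (adjusted p = 0.009). No HIF target differed by the test, with DDIT4 at -0.89 (-1.20 to -0.57, adjusted p = 0.06), ANGPTL4 at -0.90 (-1.25 to -0.54, adjusted p = 0.079) and ARRDC3 at -0.38 (-0.53 to -0.22, adjusted p = 0.094). This comparison rested on few arrays. limma called no gene without OICR623 1 or without OICR623 2 (1704 and 1795 genes at an unadjusted p under 0.05), 1 without Deferasirox 1 and 26 without DMSO 4. Without the level block it called none, with 47 genes at an unadjusted p under 0.05.

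**Figure D4:**
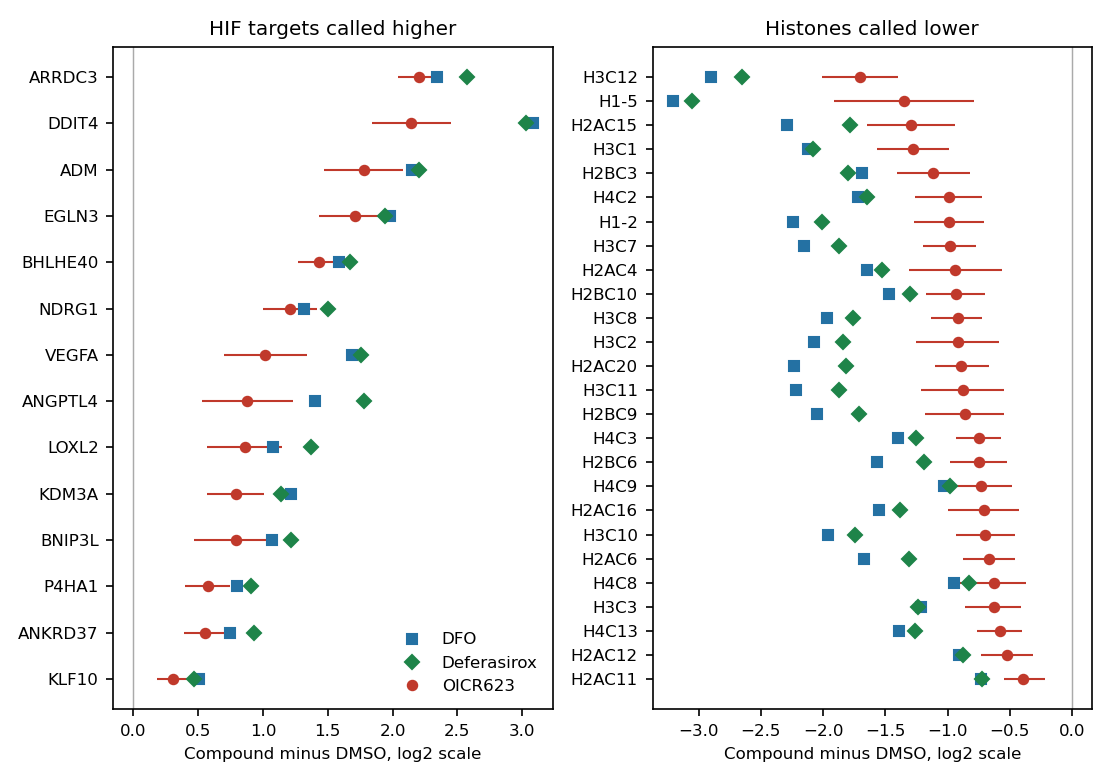
Change from DMSO (log2 scale) with OICR623 (red, with 95% interval), DFO (blue squares) and Deferasirox (green diamonds), for the 14 HIF targets that rose and the 26 histone genes that fell with OICR623. The compounds share the DMSO arrays and were given at different doses; DDIT4 is at 2.14, 3.08 and 3.03, and H3C12 at -1.70, -2.90 and -2.65.

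Side by side, the 47 HIF targets had median changes from DMSO of 0.21 with OICR623, 0.35 with DFO and 0.39 with Deferasirox, and 14, 28 and 30 of them were called higher. The DFO and Deferasirox groups hold more arrays than OICR623, which bears on how many genes can be called. The share of all genes called against DMSO with DFO or with Deferasirox was not counted. The 28 and 30 HIF targets therefore cannot be weighed against the 14 with OICR623. The G2/M list had medians of -0.13, -0.33 and -0.26, and the median of the H3 genes was -0.92, -2.10 and -1.85. TFRC stood at 0.32, 0.22 and 0.23 and FBXL5 at -0.52, -0.58 and -0.50. The interval of the difference in FBXL5 was -0.09 to 0.20 against DFO and -0.17 to 0.13 against Deferasirox. AXIN2 stood at -0.24, -0.22 and -0.25.

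A fit over all 32321 transcript clusters of the table, those with no symbol or several included, called 74 (0.229%).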

How the data were processed

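RNA of SW480 cells was read on Affymetrix Human Gene 1.0 ST arrays. The values used are the authors' deposited table of log2 signals, 1 column per array, and the submitters' processing notes name GCRMA and limma with no version or order. No detection calls were used, and arrays give no read depth, so precision is set by how many arrays there are. Of 32321 transcript clusters, 19158 carried 1 gene symbol, 1388 several and 11775 none. 19128 matched the RefSeq gene table (GRCh38.p14), and the cluster with the highest mean was kept for each of 18404 genes, 637 of which had more than 1.

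The fit was limma 3.58.1 in R 4.3.3 (lmFit, eBayes) over all 13 arrays with group and array level (3 levels, split at gaps over 0.05 between array medians) as terms, with Benjamini-Hochberg adjustment over all genes and calls at 0.05. It was also run on simulated arrays with known changes and the same level terms. That run cannot show whether the level block suits the real arrays. Lists were described by counts and medians, with no set test. The rule for named genes took the 15 highest and 15 lowest calls whose OICR623 arrays both lay outside the DMSO range, up to 4 called members per list, 20 fixed by name, and up to 8 genes per direction against DFO and Deferasirox. Others named were chosen after their values were seen. The genes, lists and the level block were chosen with earlier results of these data known.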

Additional observations from a re-analysis of the deposited data

Results flagged for a closer look

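In the 4 DMSO arrays, 1 array stood apart from the other 3 for 20 of the 73 genes named by rule. The same held for the mean signal of 12 of the 35 lists. The array was DMSO 1, the only DMSO array at the high level, in 30 of these 32 cases. The signals were not adjusted for level and the overall signal of DMSO 1 is higher, so no chance rate applies to these counts. Its values were 9.64 for ARRDC3, 10.07 for BHLHE40, 10.64 for CCNE2, 9.88 for EGLN3, 9.21 for KDM3A, 9.91 for KLF10, 10.36 for PDK1, 8.88 for TGFA, 9.43 for JUN, 11.8 for MYC, 10.48 for PAX8-AS1 and 8.99 for SLFN5. For the histone genes they were 11.91 for H2AC20, 8.63 for H2AC4, 9.2 for H3C10, 11.93 for H3C2, 9.18 for H3C8 and 9.98 for H4C2. DMSO 4 was the low array for CYP1A1, at 5.68, and FGF20, at 8.59.

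The list means on DMSO 1 were 8.81 for HIF targets, 11.21 for ribonucleotide reductase and dNTP supply, 10.7 for G1/S and replication, 9.07 for CDK inhibitors and p53 targets, 9.55 for immediate early genes, 9.53 for the ATF4 response and 9.93 for NRF2 targets. They were 8.73 for the aryl hydrocarbon receptor list, 8.07 for NF-kB, 10.14 for cholesterol and fatty acid synthesis, 9.51 for autophagy and 5.83 for fibroblast markers. With DMSO 1 and DFO 1 left out, chosen after seeing the data, 173 genes were called in place of 135.

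Transcript clusters outside the gene table held further calls. Of the clusters with several symbols 7 were called, 4 of them histone clusters: H3C4 with H2AC7 (-0.89), H4C11 with H4C12 (-0.70), the H2AC18 to H2AC21 cluster (-0.59) and a cluster of H2BC genes (-0.50). Of the clusters with no symbol 4 were called.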

How the results depend on the processing

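Counts of genes called moved with the treatment of the level and with the moderation. Against DMSO the count of 135 became 7 without the block, 81 in the middle level, 32 with only the OICR623 and DMSO arrays, 24 with arrays centred and no block, 235 without the dimmest 33.3% of genes, 336 with trend and robust moderation and 22 under treat with a minimum change of 0.3. Leaving out 1 array gave 33 to 173. Against DFO the 31 became 0 without the block, 13 centred with no block, 51 with trend and robust moderation, 10 under treat and 8 to 32 without 1 array. Against Deferasirox the 16 became 0 without the block, 7 in the middle level, 0 centred with no block (300 at an unadjusted p under 0.05), 72 without the dimmest genes, 109 with trend and robust moderation, 0 under treat (52 unadjusted) and 0 to 26 without 1 array. The 14 HIF targets became 3, 9 (OICR623 and DMSO arrays), 8 (centred, no block), 6 (treat) and 6 to 18 without 1 array. The 26 histones became 0, 10, 6 and 8 in the same order, and 7 to 28 without 1 array. The causes were not tested.

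OICR623 shares only the numbers 1 and 2 with DMSO, and the deviations of same-numbered arrays correlated at 0.291 and -0.00858. With 2 such pairs and no label that ties a number to a shared day or batch, the numbers are not taken to pair the arrays, and another pairing was not tested. With the replicate block in place of the level 10, 0 and 0 genes were called against DMSO, DFO and Deferasirox (1812 and 114 at an unadjusted p under 0.05 for the last 2), with 3 HIF targets and 3 histones, and KLF10 (-0.16), PDK1 (0) and TFRC (-0.12) lost or turned their direction. With the replicate block beside the level the counts were 36, 17 and 6, with 6 HIF targets and 11 histones. Quantile normalization, centring with the block, the mean over a gene's clusters and leaving out the high level kept these 5 counts within 1.5 times. 2 OICR623 arrays limit what can be called.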

Other observations

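Of the 62 genes called higher 37 were on no list, and several code for secreted or surface proteins. Apelin (APLN, 0.77), the cytokine LIF (0.56) and the growth factors PDGFA (0.57) and PDGFB (0.29) rose, as did the integrin subunits ITGB8 (0.69) and ITGA5 (0.55) and the transporters SLC5A3, which carries myo-inositol (0.92), and SLC38A2, which carries neutral amino acids (0.42). The kinases SGK1 (0.66, 6.64 to 7.35 in DMSO and 7.54 and 7.75 with OICR623) and MKNK2 (0.60) rose too. BTG1, an antiproliferative gene, rose by 0.76, with DMSO 1 at 9.42 above both OICR623 arrays at 9.11 and 8.99. LBH rose by 1.14 ± 0.14 (adjusted p = 0.0038 by limma), with DMSO 1 at 10.60 above both OICR623 arrays at 10.39 and 10.43. These genes were chosen after their values were seen.

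Of the 73 genes called lower 27 carry replication-dependent histone symbols, the 27th being H4C14 (-0.67), which was on no list. Outside the lists, the transcription factors SOX2 (-0.47, 9.42, 9.0, 9.06 and 8.59 in DMSO and 8.53 and 8.53 with OICR623), HEY2 (-0.54), PAX6 (-0.32), HOXD13 (-0.33) and NFYA (-0.29), a subunit of the factor that binds CCAAT, fell. The mitotic genes BORA (-0.50), TACC3 (-0.27), PSRC1 (-0.32) and FAM83D (-0.26), the apoptosis initiator CASP8 (-0.37) and the vitamin D hydroxylase CYP24A1 (-0.27) fell too. OR5P2, KRTAP13-2 and SNORD63, read below 5 on all 6 arrays, were called at 0.40, -0.53 and -0.52, and these arrays carry no detection call for them.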
